A study of Mus musculus with 6 samples.

Results

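Of 9158 circular RNAs (circRNAs) listed for the mouse cell line GC-2 spd(ts), 704 were typed as exonic and carried an entry of circBase, a public catalogue of circRNAs found in earlier sequencing studies. These 704 circRNAs came from 561 host genes and are described here. They were chosen by type and catalogue entry, not by any measured value. The other 8137 exonic circRNAs, from 3675 host genes, had no circBase entry and served as the comparison. The remaining circRNAs were typed as intronic in 183 cases and as mixed exon and intron in 134.

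GC-2 spd(ts) is an immortalised line derived from mouse spermatocytes. All cultures were held without serum for 12 h. The control culture was then grown for 48 h in medium with 10% serum and 0.1% dimethyl sulfoxide, the solvent. The exposed culture received 120 µM bisphenol A (BPA), a plastic monomer with weak estrogenic activity, dissolved in dimethyl sulfoxide, in the same medium for the same time. RNA of each culture was divided among libraries of different RNA classes. The circRNA libraries were first rid of ribosomal RNA and then treated with RNase R, an exonuclease that degrades linear RNA. With 1 library in each group and class, every difference reported here lies between a pair of libraries and has no replicate error.

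A circRNA forms when the spliceosome joins the 5′ splice site at the end of an exon to the 3′ splice site at the start of the same or an earlier exon, a reaction called back-splicing. The closed product has no free end and resists exonucleases, so circRNAs can outlast the linear mRNA of their host gene. Back-splicing is known to be favoured by long flanking introns and by inverted complementary sequences in them, and to spare the first and last exons, which lack one of the splice sites needed. Testis and brain are tissues known for many circRNAs. Reads across the back-splice junction tell a circRNA from its linear host, and 1 such event was the unit counted here.

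The junction is the only sequence that a circRNA has and its host mRNA lacks. It is shown for 7 circRNAs that the results turn on, read from the RefSeq GRCm38.p6 genome on the transcribed strand. The 20 lower-case bases end the last exon of the circle and the 20 capitals begin its first exon, so the change of case marks the back-splice.
Nfix, chr8:84771784-84772315, minus strand: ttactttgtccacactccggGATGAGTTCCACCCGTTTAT
Pvt1, chr15:62107148-62107465, plus strand: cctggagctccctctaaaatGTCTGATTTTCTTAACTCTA
Rras2, chr7:114058540-114060419, minus strand: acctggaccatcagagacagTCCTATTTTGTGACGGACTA
Dcbld2, chr16:58424561-58433463, plus strand: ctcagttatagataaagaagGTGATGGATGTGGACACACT
Arhgap32, chr9:32181842-32208265, plus strand: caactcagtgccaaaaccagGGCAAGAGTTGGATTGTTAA
Fgfr2, chr7:130241200-130242644, minus strand: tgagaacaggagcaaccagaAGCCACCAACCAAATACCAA
Eefsec, chr6:88355483-88358642, minus strand: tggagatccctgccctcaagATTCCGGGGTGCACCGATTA

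The genomic letters beside the junction show which splice sites were used. They are printed for the pair of circRNAs with the most events, with 20 intron bases and 8 exon bases at each end and the intron's AG or GT in capitals.
Nfix, acceptor: gctcccggcttgccgcctgcAGgatgagtt
Nfix, donor: cactccggGTaggttgctctcatcaacccc
Pvt1, acceptor: gttttcttctcccttgtctcAGgtctgatt
Pvt1, donor: tctaaaatGTaagcccctaagacccatctc
All 704 catalogued circRNAs had AG before the first exon and GT after the last exon. The same letters flanked 8033 of the 8137 exonic circRNAs without an entry, or 98.7%. The circRNA caller is not given, and how far its rules or those of circBase fixed these letters was not tested. The last exon ended in G in 81.0% of catalogued circRNAs and 80.1% of the others with AG and GT. The donor read GTA in 69.2% and 71.0%, and GTG in 25.6% and 23.9%. Among the 20 intron bases before AG, the median share of C or T was 77.5% and 75%. Apart from the AG and GT, the splice sites of the catalogued circRNAs thus had nearly the letters of the others.

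Both ends of 703 of the 704 circRNAs fell on annotated exon ends of GENCODE M21. They were chosen as exonic, and how far that typing fixed this count was not tested. The circRNA without both ends on exon ends was Dtx3l, with 0 events in control and 1 with BPA. In 699 cases a single transcript held both ends, and its exons give the following structure, on the assumption that every exon between the ends is kept. The catalogued circRNAs held a median of 3 exons (quartiles 2 and 4) and the others 4 (3 and 5). Single-exon circles were 61, or 8.73%, against 283, or 3.51%. The most exons were 10, in a circle of Kcnt2, a potassium channel gene, that spanned 87356 bases, and in a circle of Ttc3, while the others reached 39 exons. Median spliced length was 429 bases (quartiles 320 and 613) against 449. Single-exon circles were longer, with a median of 667 bases against 422 in the single-exon circles without an entry.

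The circle began at exon 2 of the transcript in 307 of 699 catalogued circRNAs, or 43.9%, and in 2594, or 32.2%, of the others. Only 3 catalogued circles were placed at exon 1. Of 684 catalogued circRNAs from coding transcripts, 140, or 20.5%, held the annotated start codon, against 13.3% of the others, and 7 held the stop codon. Wholly coding circles made up 535, or 78.2%, against 85.8%, and 186 of the 535 had a length that is a multiple of 3. The intron before the circle had a median length of 15609 bases against 5845, and the intron after it 11877 against 4092. Because well-covered circRNAs differed from sparse ones in structure, the comparison was repeated for circRNAs with at least 10 events in both libraries together. There the introns measured 17561 and 13382 bases against 11815 and 10644, the exon 2 start was at 59.9% against 49.4%, and the spliced length was 397 against 398. Single-exon circles were 10.6% against 5.44%, and the median exon number was 3 in both classes. Among these circRNAs the gap in intron length was smaller and the gap in single-exon circles remained. The gaps in spliced length and in median exon number were absent. The cut did not match level, since 34 catalogued circRNAs had 50 or more events against 17 of the others.

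**Figure D1:**
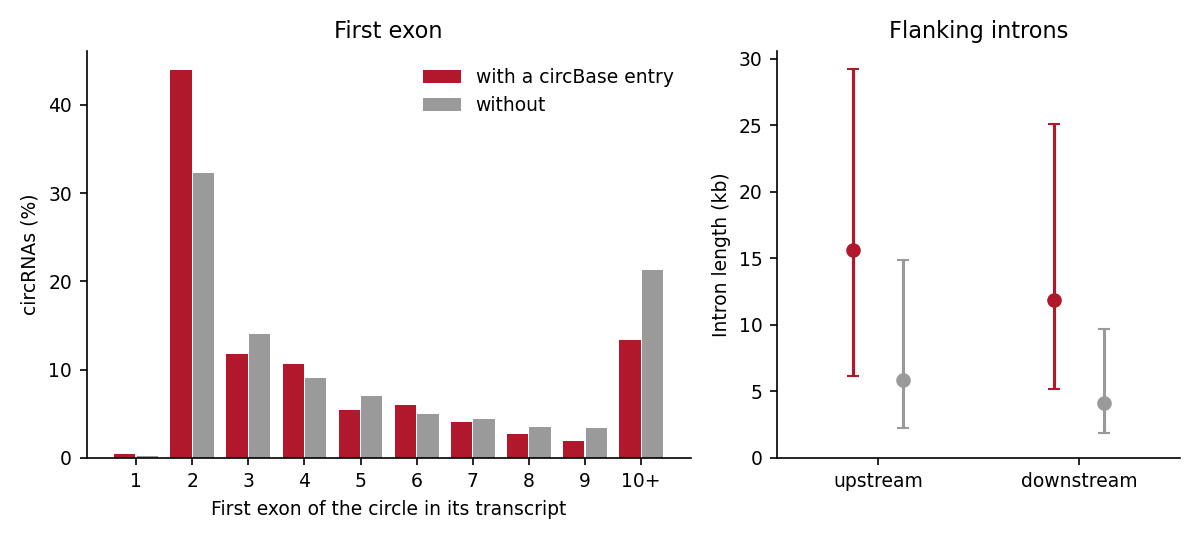
Structure of exonic circRNAs with a circBase entry (red) and without one (grey). Left, bars give the share of circRNAs (y axis, %) by the number of the first exon in the transcript (x axis). Right, points are medians and lines run from the lower to the upper quartile of flanking intron length (kb). Exon 2 is the commonest start in both classes, at 43.9% and 32.2%, and the introns of catalogued circRNAs are longer on both sides.

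Inverted complementary flanks, the known aid to back-splicing, were searched as the longest exact inverted match between the 1000 bases before and the 1000 bases after the circle. Its median was 11 bases in both classes. Matches of at least 20 bases occurred in 31 catalogued circRNAs, or 4.40%, and in 440, or 5.41%, of the others. Repeat-masked bases took a median of 24.8% of the flanks against 25.7%. The catalogued circRNA of Fam160b1 (chr19:57378549-57379175, plus strand) had an unusual match of 131 bases that was not repeat-masked, between chr19:57378071-57378201 and chr19:57379641-57379771. It was singled out after its value was seen, and its upstream intronic copy is shown because its reverse complement lies after the circle.
Fam160b1, upstream copy: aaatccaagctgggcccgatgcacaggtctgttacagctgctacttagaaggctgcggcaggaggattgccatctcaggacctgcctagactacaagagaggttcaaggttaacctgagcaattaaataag
This circRNA of 2 exons and 491 bases had 25 events in control and 30 with BPA. The match of Senp1 was longer, at 150 bases, yet that circRNA had 3 and 2 events, so length of match and level did not go together in this pair. Exact matching misses inverted repeats with mismatches, so these shares are lower limits for complementary flanks.

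The catalogued circRNAs held many events for their number. They made up 4067 of 12909 events with the solvent alone, or 31.5% (exact 95% binomial interval 30.7 to 32.3), and 5266 of 17586 with BPA, or 29.9% (29.3 to 30.6). All intervals given here cover only the error of counting, and amplified reads that carry no molecular identifier can stem from the same molecule. A count of 0 allows a circRNA up to 0.0232% of the control events and 0.0171% of the BPA events. A catalogued circRNA had a median of 4 events in both libraries together (quartiles 2 and 12), against 1 (1 and 2) for exonic circRNAs without an entry. A single event in all was seen for 149 catalogued circRNAs, or 21.2%, against 57.7% of the others. Of the 10 circRNAs with the most events, 4 were catalogued exonic ones, of the top 50, 34 were, and of the top 500, 218 were.

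Few circRNAs carried much of this level. The single circle of Nfix held 10.8% of the catalogued events in control and 9.61% with BPA, the top 12 held 30.4% and 27.9%, and the top 100 held 67.8% and 65.7%. Without Nfix and Pvt1, the catalogued circRNAs held 25.9% of all control events and 25.8% of all BPA events. With the pair also left out of the totals, the shares were 27.4% and 26.9%. The gap between the libraries, 31.5% against 29.9%, was smaller without this pair in both counts.

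Detection in both libraries was the rule for catalogued circRNAs and the exception for the others. At least 1 event was seen for 538 of them in control and 604 with BPA. They were present in both libraries in 438 cases, or 62.2% (58.5 to 65.8), where 22.2% of all circRNAs were. Another 100 were seen in control alone and 166 with BPA alone. Of all 9158 circRNAs, 2673 were in control alone and 4452 with BPA alone, so BPA alone was the larger count in both. Of the exonic circRNAs without an entry, 1558, or 19.1% (18.30 to 20.02), were in both. With the BPA library reduced to the control total, the shares were 59.0% and 16.8%, and with at least 2 events asked in each library they were 42.9% and 7.85%.

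Set side by side at equal level, the classes differed at low levels and not at higher ones. Among circRNAs with exactly 2 events, 37.8% (28.2 to 48.1) of 98 catalogued ones were split over both libraries, against 22.1% (20.1 to 24.2) of 1640 others. At 3 events the shares were 63.8% (50.1 to 76.0) and 42.8% (39.0 to 46.6). At 6 to 9 events they were 90.6% and 89.2%, within each other's intervals. From 10 events on, 207 of the 209 catalogued circRNAs were in both libraries, and the exceptions were Arhgap32 and Mpp6.

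**Figure D2:**
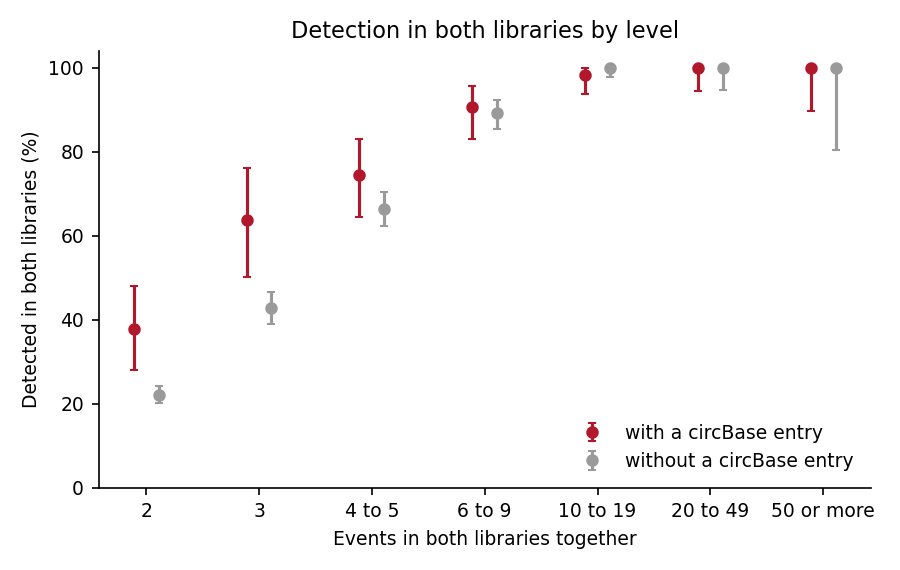
Share of exonic circRNAs detected in both libraries (y axis, %) by their events in both libraries together (x axis), with a circBase entry (red) and without one (grey). Points are shares and lines are exact 95% binomial intervals. The intervals are apart at 2 and 3 events, and from 6 events on the classes lie together.

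The comparison of the BPA with the control library asked which circRNAs differed with exposure. It was made for the 209 catalogued circRNAs with at least 10 events together, 29.7% of the 704. Ratios are log2 values of BPA over control after adding 0.5 events, with library sizes scaled by the trimmed mean of M-values (TMM) over all circRNAs. At least 2-fold higher in the BPA library were 36 catalogued circRNAs, or 17.2%, where 17.7% of all 457 compared circRNAs were. At least 2-fold lower were 19, or 9.09%, where 10.7% of all compared circRNAs were. The other 154 lay within 2-fold. The median ratio was 0.19 (quartiles -0.27 and 0.81), with 0.16 over all compared circRNAs and 0.15 over exonic ones without an entry. By these counts the catalogued circRNAs lay near the background of the table.

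The centre of the ratios depended on the scaling. TMM set all ratios 0.17 above those scaled by the total of events, and the median over all compared circRNAs was then 0.16 in place of -0.01. TMM over only the circRNAs with at least 10 events, a choice made after seeing the data, left that median at 0.00. Scaled by totals, 28 catalogued circRNAs were at least 2-fold higher and 24 lower, and all compared circRNAs were split evenly, at 59 each. Of the 2-fold calls, 65.5% were on the higher side with TMM and 53.8% with totals. The excess of higher over lower calls thus moved with the scaling, and ratios given here are to be read against 0.16. The counting interval of the ratio left out equality for 19 circRNAs on the higher side, or 9.09% beside 7.88% of all compared, and for 11 on the lower side, or 5.26% beside 5.69%. Under both scalings it did so for 24, of which 13 were higher and 11 lower. Cdyl, Vps50, Ipo7, Whsc1, Vapa and Rras2 were apart from equality with TMM alone, and Nfix, Med13l, Bub1b and Smad4 with totals alone.

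The share at 2-fold was lower at higher levels. At 10 to 19 events 33.3% of catalogued circRNAs were at least 2-fold apart in either direction, at 20 to 49 events 26.6%, and at 50 or more 2.94%, which was 1 of 34, all with TMM. Over all compared circRNAs 28.4% were 2-fold apart in either direction, and 26.3% of the catalogued ones. The filter edge was crowded, with 17 circRNAs at 10 events and 16 at 9.

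**Figure D3:**
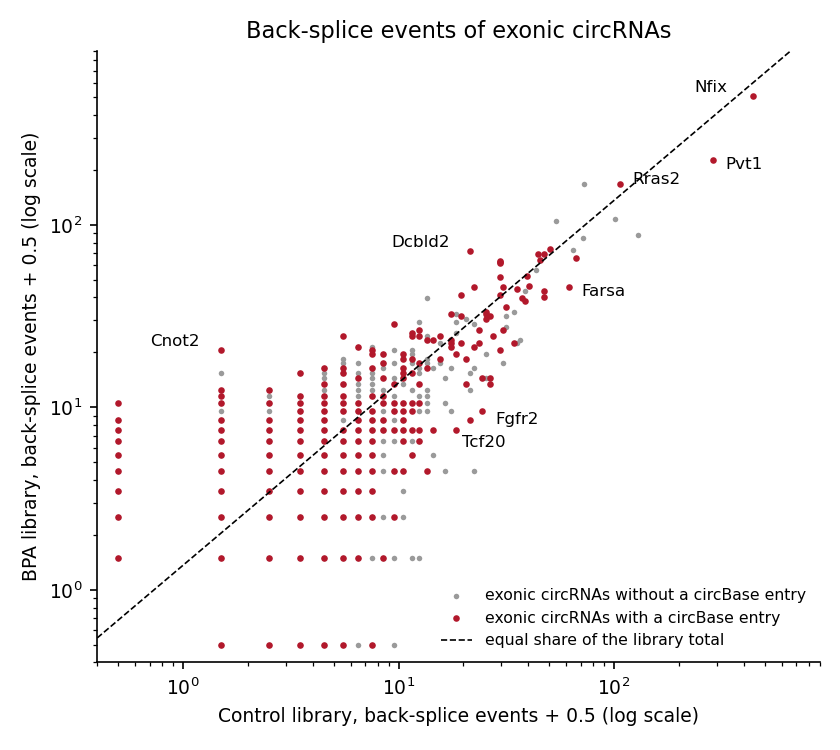
Back-splice events of exonic circRNAs in the control library (x axis) and the BPA library (y axis), each with 0.5 added and on a log scale. Red points have a circBase entry, grey points have none, and circRNAs with equal counts share a point. The dashed line marks an equal share of the library total. Nfix and Pvt1 lie at the upper end, Dcbld2 and Cnot2 above the line, and Pvt1, Farsa, Fgfr2 and Tcf20 under it.

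The circRNA with the most events was exon 2 of Nfix, a transcription factor of the nuclear factor I family. This single coding exon of 532 bases had 441 events in control and 506 with BPA. Its ratio was -0.08 (95% interval -0.26 to 0.11), and -0.25 (-0.43 to -0.06) when scaled by totals, so its call rests on the scaling. Exon 2 of Pvt1, a long noncoding RNA gene beside Myc, gives a circle of 318 bases. It had 287 events in control and 225 with BPA, a ratio of -0.62 (-0.88 to -0.37). Pvt1 was lower in the BPA library under both scalings, with the narrowest interval of the lower ones.

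The next circRNAs by level mostly joined exons 2 to 4. Rras2, which encodes a small GTPase related to Ras, had 106 and 167 events and a ratio of 0.38 (0.02 to 0.75), which included 0 when scaled by totals. Erbin, a scaffold at the basolateral membrane, had 66 and 65 events, and its ratio was -0.30. The zinc finger gene Zfp292 had 50 and 73 events, and the ETS factor Elf2 had 45 and 64. Both had intervals that held equality, at 0.27 (-0.27 to 0.82) and 0.23 (-0.34 to 0.82). Txndc11, a thioredoxin-domain protein of the endoplasmic reticulum, had 47 and 69 events, and the uridine-cytidine kinase Uck2 had 44 and 69. Hipk3, a kinase whose exon 2 circle of 1099 bases is among the best studied circRNAs, had 39 and 52 events and a ratio of 0.14 (-0.49 to 0.78). These 5 circRNAs from Zfp292 to Hipk3 had ratios near the median of the table.

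Dcbld2, Mettl9 and Farsa stood farther from equality among the abundant circRNAs. Exons 2 to 3 of Dcbld2, a transmembrane receptor-like protein, had 21 events in control and 71 with BPA, a ratio of 1.46 (0.76 to 2.26). With TMM it was the only catalogued circRNA with at least 50 events that was 2-fold apart, and with totals the circle of Tasp1 with 34 and 22 events was so too, at -1.06. Mettl9, a histidine methyltransferase, had 29 and 63 events and 0.83 (0.19 to 1.53). Farsa, the catalytic subunit of phenylalanyl-tRNA synthetase, formed a circle of exons 5 to 7, with 61 and 45 events and -0.71 (-1.30 to -0.13). All of these kept their side of equality when scaled by totals.

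The 8 highest ratios belonged to sparse circRNAs, each with at most 2 events in control. Arhgap32, a GTPase-activating protein, and Mpp6, a membrane scaffold, each had 0 events in control and 10 with BPA. The at-least bound set the control library at a floor of 3 events and took the 10 events as exact. By it they were at least 2.76-fold higher in the BPA library, a log2 ratio of 1.46. The counting interval, which also covers error in the 10 events, reached lower, to a log2 ratio of 0.89. Cnot2, a subunit of the CCR4-NOT deadenylase, had 1 and 20 events and a ratio of 3.50 (1.40 to 9.42). Cept1, which makes phosphatidylcholine and phosphatidylethanolamine, and Tbc1d20, a regulator of Rab GTPases, each had 1 and 12 events and 2.79 (0.55 to 8.73). The noncoding Lncpint had 1 and 11 events, Srbd1 had 1 and 10, and the chromodomain protein Cdyl had 2 and 12. Cdyl, at 2.05 (0.14 to 5.51), lost its call when scaled by totals, where its interval began at -0.03. The lower bounds of the other 7 stayed above 0 there, but each of them reached the filter of 10 events through the BPA library alone and was picked for its high ratio, so these bounds are a description of that choice.

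The lowest ratios came from circRNAs with 7 to 24 events in control. Fgfr2, a receptor of fibroblast growth factors, had 24 events in control and 9 with BPA over exons 3 to 4, a ratio of -1.64 (-2.98 to -0.53). Tcf20, a chromatin-bound coregulator, gave a single-exon circle of 5772 bases with 21 and 8 events and -1.61 (-3.05 to -0.43). Its other catalogued circle, of 2 exons and 5866 bases, did not share this, with 9 and 13 events. Eefsec, the elongation factor for selenocysteine, had 18 and 7 events and -1.58 (-3.14 to -0.31). Nmt1, which attaches myristate to proteins, had 13 and 4, and the endosomal protein Ankfy1 had 9 and 2. For the 5 lowest circRNAs the interval left out equality under both scalings. For the RNA helicase Ddx17, with 10 and 4 events, and Luc7l, with 7 and 3, it included equality. All of them were picked for their low ratios. Nmt1, Fgfr2, Eefsec and the single-exon circle of Tcf20 also reached the filter of 10 events through the control library alone. Their intervals are thus a description of that choice.

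**Figure D4:**
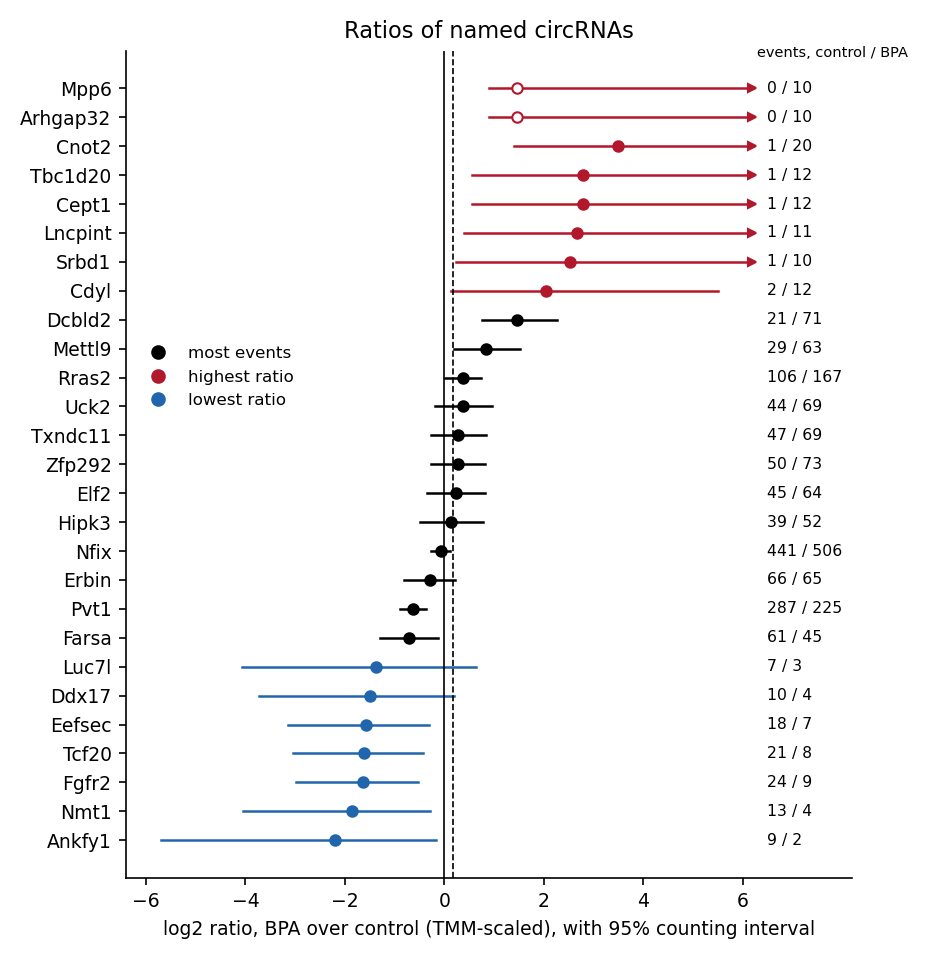
log2 ratio of BPA over control (x axis, TMM-scaled) with exact 95% counting intervals for the 12 circRNAs with the most events (black), the 8 highest ratios (red) and 7 of the lowest (blue), with the events of each library at the right. Arrows mark intervals beyond the axis, open circles mark the at-least bound of Mpp6 and Arhgap32, and the dashed line is where equality lies when scaled by totals. The 12 abundant circRNAs run from -0.71 for Farsa to 1.46 for Dcbld2 with short intervals, and the extreme ratios have long ones.

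Other catalogued circRNAs whose intervals left out equality under both scalings were in neither set. On the higher side, the deubiquitinase Usp3 had 5 and 24 events and a ratio of 1.88 (0.57 to 3.74), the transcription factor Glis3 had 3 and 15, Lin54 of the DREAM complex had 6 and 21, and the lipid-transfer protein Esyt2 had 9 and 28. On the lower side, the ataxin gene Atxn2 had 26 and 13 events and -1.25 (-2.36 to -0.26), Dtnb of the dystrobrevin family had 26 and 14, the RNA-binding Samd4 had 24 and 14, and the protease Tasp1 had 34 and 22. They were named after their values were seen, and picked because their intervals left out equality. Usp3, Glis3, Lin54 and Esyt2 also reached the event filter of the comparison through the BPA library alone. Atxn2, Dtnb, Samd4 and Tasp1 had enough events for it in each library. The intervals of all these circRNAs are thus a description of that choice. If a step of 2 in the deposited values stood for 2 reads and not for 1 event, the intervals would be narrower, and 66 in place of 30 would leave out equality.

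Ratios were also set beside the structure of the circle. Circles that began at exon 2 had a median of 7 events together and 70.0% were in both libraries, against 3 events and 55.8% for circles that began later. Of 124 compared exon 2 circles, 23 were at least 2-fold higher and 9 lower, with a median of 0.27. Of 81 later ones, 11 were higher and 10 lower, with a median of 0.02. By exon number the medians were 0.07 for 22 single-exon circles, 0.16 for 117 with 2 or 3 exons and 0.36 for 68 with 4 or more. The 10 compared circRNAs with an inverted match of at least 20 bases had 1 higher and 4 lower, with a median of -0.80, and with so few members this is a count only. Over all 457 compared circRNAs 17.7% were higher and 10.7% lower, with a median of 0.16. These splits were not tested, and the groups differ in level.

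Most host genes gave 1 catalogued circRNA. This held for 463 of 561 hosts, while 68 gave 2, 23 gave 3, 2 gave 4, 4 gave 5 and 1 gave 8. The same hosts gave 1581 further circRNAs, and the catalogued ones held 68.7% of the events of these hosts. In the 98 hosts with several, the leading circle held a median of 71.4% of the host's catalogued events. A back-splice end was shared with another circRNA by 433 catalogued circRNAs, or 61.5%, against 49.9% of the others. Such circRNAs use a common splice site, and their counts are not independent.

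Rere, an atrophin-family corepressor, had the most catalogued circRNAs. Its 8 circles spanned 7946 to 70696 bases and had 1 to 14 events each in both libraries together. The circle with the most events had 5 in control and 9 with BPA, and another had 2 and 10. All 5 circles of Tasp1, the protease that cleaves MLL, began at the splice site of exon 2 and 1 dominated. That circle had 34 events in control and 22 with BPA, a ratio of -0.89 (-1.75 to -0.09), while another from the same site had 3 and 8. Kansl1, of the NSL acetyltransferase complex, and Mllt10, a partner of the methyltransferase DOT1L, had 5 circles each. None of these circles had more than 14 events in both libraries together, and the leading circle had 5 and 9 events for Kansl1 and 3 and 1 for Mllt10.

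By the role of the host gene, 209 catalogued circRNAs fell in 8 lists and 495 in none. Chromatin regulators hosted 30 circRNAs, of which 11 could be compared, 3 were at least 2-fold higher and 0 lower, with a median of 0.26. The methyltransferase gene Whsc1 had 29 and 62 events and a ratio of 0.81 (0.16 to 1.51), which reached below 0 when scaled by totals. Phf21a, a reader of unmethylated histone H3, had 37 and 39 events, Ezh2 of the Polycomb repressive complex had 17 and 32, and the acetyltransferase Kat6b had 20 and 18. RNA-binding and splicing factors hosted 26, with 11 compared, 2 higher and 2 lower and a median of 0.11. Among them the transport protein Stau2 had 12 and 26, Hnrnpll had 11 and 25, and the deadenylase subunit Pan3 had 20 and 13. The intervals of these 3 all held equality.

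Ubiquitin genes hosted 26 circRNAs, with 9 compared, 1 higher and 2 lower and a median of -0.20. The ligases Trim33 and Huwe1 had 27 and 24 and 18 and 19 events, and Rnf4 had 8 and 19. Usp3 was the higher one. Kinases, phosphatases and receptors formed the largest list with 51 circRNAs, of which 16 were compared, 1 was higher and 1 lower, and the median was -0.03. The activin receptor Acvr2a had 22 and 21 events, with an interval that held equality. Regulators of small GTPases and the cytoskeleton hosted 40, with 11 compared, 2 higher and 0 lower and a median of 0.17. Arhgap10 had 35 and 44 events, and 2 circles of Rasa2 that both began at exon 2 had 29 and 41 and 15 and 24. Specc1l had 5 and 15 events, with an interval that held equality.

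The remaining lists had few compared members. Adhesion and matrix genes hosted 7 circRNAs, of which 3 were compared and none was 2-fold apart. Crim1, a transmembrane regulator of bone morphogenetic proteins, had 47 and 43 events. Cell cycle and DNA repair genes hosted 15, with 5 compared, none 2-fold apart and a median of 0.64. The cohesin gene Stag2 had 5 and 10 events, and Fancl and Cdc14b had 4 and 8 each. Hosts known from earlier circRNA work gave 28, with 15 compared, 2 higher and 0 lower and a median of 0.14. Over all 457 compared circRNAs 17.7% were higher and 10.7% lower, and no list is large enough to be set apart from that by its count.

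Host mRNA was read from the mRNA libraries of the same cultures, with 32312872 and 33071378 reads. The mRNA table listed 555 of the 561 hosts, and the other 6 host labels joined 2 gene symbols. Hosts were well-expressed genes, with a median of 3816.5 reads in both libraries together against 1078 over all compared genes. Of 554 compared hosts, 3 mRNAs were at least 2-fold higher with BPA, or 0.542%, where 6.88% of 16870 genes were, and 4 were lower, or 0.722%, where 4.61% were. The median host ratio was -0.03, with 0.02 over all genes. The share of hosts at 2-fold was small beside that of all genes, and the hosts had more reads. The part of read depth in this was not tested. Among the outer ones, Tmem164 had 1148 and 293 reads with 1 and 8 circRNA events, Fndc3b had 5615 and 2807 reads with 6 and 9 events, and Gas2 had 25 and 72 reads with 2 and 0 events.

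For 206 compared circRNAs the host mRNA was compared as well. The standard deviation of the ratio was 0.96 for circRNAs and 0.26 for hosts. Across these circRNAs the Pearson correlation of both ratios was 0.07 and the Spearman correlation 0.12. This is a description, since circRNAs of 1 gene share a host value. Counting error weighs more on the circRNAs, since 111 of the 209 compared had 10 to 19 events. Host mRNAs had a median of 3816.5 reads, taken over the 554 compared hosts of all catalogued circRNAs. The part of counting error in the spread and in the low correlation was not tested. Both ratios were above 0 in 56 cases and both under 0 in 55. In 64 the circRNA was above and the host under 0, and in 31 the reverse. These counts were made with TMM and depend on the scaling. Of the 209 compared catalogued circRNAs, 123 were above 0 with TMM and 107 with totals. All hosts of the 34 higher and 19 lower 2-fold circRNAs with a host value lay within 2-fold.

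With TMM, the counting interval of the circRNA lay wholly above that of its host in 17 of the 206 cases and wholly under it in 6. The same counts were not made with totals, where all circRNA ratios are lower, nor over all compared circRNAs. Of those above, Cnot2, Usp3, Vps50 and others reached the filter of 10 events through the BPA library alone. Of those under, Tcf20, Eefsec and Nmt1 reached it through the control library alone. The counts of 17 and 6 are thus no measure of the catalogued circRNAs as a class. Pvt1 had 274 and 414 host reads, a ratio of 0.48 (0.26 to 0.71), while its circle was at -0.62. The host reads of Pvt1 can include other transcripts of this long locus. Eefsec had 988 and 1490 host reads, at 0.48 (0.36 to 0.60), with the circle at -1.58. In both, host and circle lay on opposite sides of equality. Dcbld2 had 4766 and 5723 host reads, at 0.15, with the circle at 1.46. Vps50, of an endosomal tethering complex, had 3441 and 2572 host reads, at -0.53, and 4 and 16 events, at 1.60, though its circle included equality when scaled by totals. Fgfr2 differed from these, with 2305 and 1535 host reads at -0.70 and the circle at -1.64 (-2.98 to -0.53), an interval that reached the host's. Nfix mRNA had 20184 and 15796 reads, at -0.47 (-0.50 to -0.44), and its circle at -0.08 lay above it with TMM. Scaled by totals, the interval of the Nfix circle began next to the host's upper end.

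**Figure D5:**
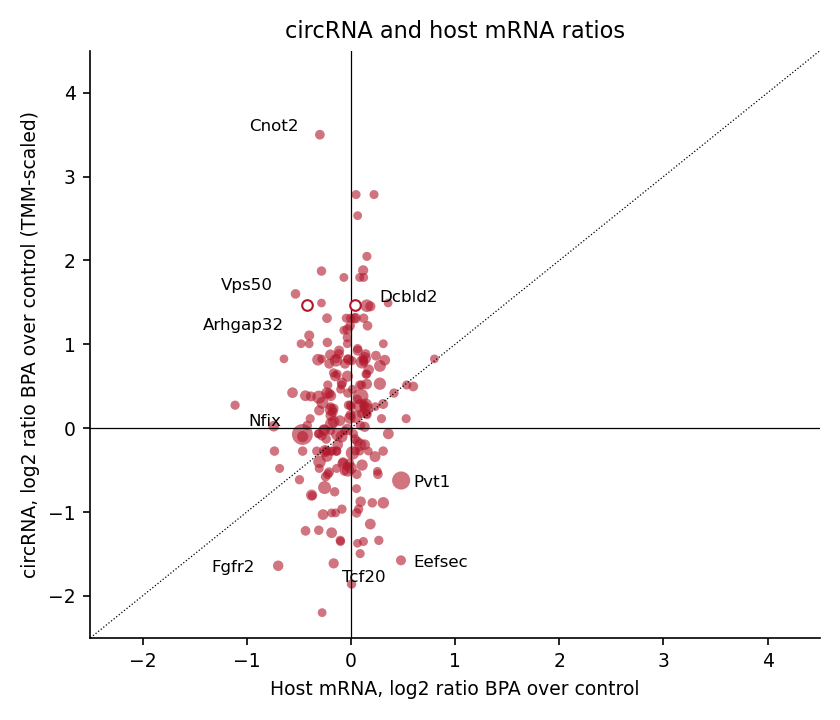
log2 ratio of BPA over control for the host mRNA (x axis) and the circRNA (y axis, TMM-scaled) of 206 catalogued circRNAs with at least 10 events and a compared host. Point area grows with events, open circles are at-least bounds, and the dotted line marks equal ratios. Host ratios are packed near 0 while circRNA ratios spread along the y axis, and Pvt1 and Eefsec lie to the lower right. The circRNA ratios rest on far fewer counts than the host ratios.

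The authors' deposited table gives a p-value from their own comparison of 1 library with 1. There, 9 of the 704 catalogued circRNAs had a p-value under 0.05 in the authors' deposited table, where 0.273% of all circRNAs did, and 0 passed after adjustment. Called circRNAs in the authors' deposited table had at least 8 events together, and among circRNAs of that level the share was 3.64% with an entry and 3.93% without one, close to each other. The lowest, Cnot2 in the authors' deposited table, had a p-value of 0.0019 and an adjusted value of 0.865. The others under 0.05 included Dcbld2, Mpp6, Arhgap32 and Usp3, which were also among the higher circRNAs here. Both results rest on the same pair of libraries, so this overlap adds no independent support.

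The label of the cell type was checked in the mRNA libraries. Of 12 germ cell markers 3 were listed, Ddx4 with 0 and 9 reads, Sycp3 with 6 and 0 and Piwil2 with 7 and 13, so the listed ones were near 0. The other 9 were not in the table. All 8 markers of fibroblasts and peritubular cells were listed, with 191259 reads in control and 106101 with BPA together. The part of these levels in the circRNA results was not tested.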

How the data were processed

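Libraries of circRNA and mRNA from 1 control and 1 BPA culture of GC-2 spd(ts) were used, grouped by sample title. The miRNA libraries were not analysed here. The submitters' processing notes name STAR for both classes, StringTie for mRNA, and GRCm38 and mm10 as builds. Not given in the sources used here: circRNA caller, counter and annotation release. The deposited circRNA values were log2 values. After raising 2 to each value and subtracting 1, all gave whole multiples of 2 within a tolerance of 0.001, and a step of 2 was taken as 1 event. The deposited mRNA values were also log2 values, already scaled by the authors' size factors, and whole reads came out for 100% of them with steps of 1.03943 and 0.962066. Both tables also held p-values that, per the file headers, are from the authors' comparison, made with a test that no source used here names. The 4 columns named G1 and G2 that match no sample title were not used.

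The tests planned for counts were replaced by ratios, since the values were logs and each group had 1 library. Members were the exonic circRNAs with a circBase entry. Back-splice events were compared where both libraries together had at least 10, with 0.5 events added and TMM scaling (trims of 0.3 and 0.05, factors 1.06 and 0.942). The interval was the exact conditional Clopper-Pearson 95% interval. Ratios at least 2-fold apart were counted. Because TMM over all circRNAs and TMM over the better-covered ones differed, values scaled by totals are given beside it. Host mRNA ratios used a pseudocount of 1 and at least 10 recovered reads. Circles were placed on GENCODE M21 and the RefSeq GRCm38.p6 genome. All circRNA coordinates equalled those of their circBase entry as deposited. Alternatives were other scalings, prior counts, filters and detection limits. Named circRNAs were the 12 with the most events, the 8 highest and the 8 lowest ratios, the hosts with the most circles, and up to 4 per host list, and some of them are not reported here. The members and lists were chosen with earlier results of these data known. Tools were Python 3.11.15, NumPy 2.4.6, pandas 2.3.3, SciPy 1.17.1 and matplotlib 3.10.9.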

Additional observations from a re-analysis of the deposited data

How the results depend on the processing

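The counts at 2-fold moved with scaling and filter. With events not scaled, which equals median-of-ratios size factors here, 60 catalogued circRNAs were at least 2-fold higher and 11 lower, beside 125 and 32 of all 457 compared. At least 20 events together gave 11 higher and 7 lower, at least 5 events gave 81 and 44, and no filter, with all 704, gave 235 and 162. Each filter changes how many circRNAs are compared, and the same counts over all circRNAs were not made at these filters. At 20 to 49 events, 10 of 64 catalogued circRNAs were higher and 7 lower, against 10 and 6 of 68 exonic ones without an entry. The median ratio was 0.0196 with totals, 0.466 unscaled and 0.0308 with TMM over circRNAs of at least 10 events, the last chosen after seeing the data. Reading a step of 2 as 2 events raised the intervals apart from equality to 66. Asking 2 events per library lowered shared detection to 42.9%. Leaving out Nfix and Pvt1, also chosen after seeing the data, took the share of all events to 25.9% and 25.8%, and to 27.4% and 26.9% with the pair out of the totals too. Of 140 alternative ratios of named circRNAs, 0 turned a called direction and 4 moved beyond the counting interval, namely Nfix to 0.20 and Pvt1 to -0.35, each with no scaling and with median-of-ratios factors. The median host ratio kept its direction under a pseudocount of 5, at least 50 reads and no filter. No paired analysis was possible because each group had 1 library. Depth limits any single circRNA, and at 10 events together a 2-fold ratio lies within counting error.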

Other observations

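Another 10 circRNAs had a circBase entry but were typed as mixed exon and intron, and so lie outside the exonic set. The circle at the Lncpint locus had 14 events in control and 12 with BPA, and that of the focal adhesion kinase Ptk2 had 8 and 8. Zranb1, a deubiquitinase, had 1 and 11 events. The forkhead gene Foxp1 gave 3 of these circles, with 3 and 4, 2 and 4, and 4 and 1 events. All 10 had at least 1 event with BPA and 9 had at least 1 in control.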
